A study of Mus musculus with 18 samples.

Results

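The 48 genes described here encode proteins that copy DNA and divide the cell, and they were read in cultured mouse testes as FPKM, a fragment count scaled to gene length and library size. The members were given as a list of gene symbols with at least 1 FPKM in 3 or more samples. All 48 symbols were found and passed this filter, among 15790 genes that passed it of 22657 in the table. The members were set into 9 groups by role: licensing and the replication fork (12 genes), nucleotide supply (4), G1/S control (3), mitotic entry (6), kinetochore and checkpoint (10), anaphase ubiquitylation (2), spindle (6), cytokinesis (3) and chromosome structure (2).

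Testes came from ICR mice, an outbred strain. Mice of the B0, BA10 and BA50 groups had been injected once with busulfan, an alkylating drug, at 40 μg per g body weight and 3 weeks of age, and those of the A0, A10 and A50 groups had received no busulfan. All testes were collected 2 weeks after that age and cultured for 48 h in the same serum-containing medium with alginate oligosaccharides (AOS, short sugar chains from brown algae) at 0 μg/mL (A0, B0), 10 μg/mL (A10, BA10) or 50 μg/mL (A50, BA50). The series' design text gives the AOS amounts per body weight, whereas the labels give them per volume of medium. Each group had 3 samples, each made from several testes, and busulfan was given to the animal and AOS only in the dish.

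In dividing cells, a helicase built around the MCM proteins is loaded at replication origins by CDC6 and CDT1 and switched on with CDC45 and the GINS proteins. Cyclin E starts this S phase, and cyclin A and cyclin B with CDK1 carry the cell into mitosis, where kinetochores, spindle motors and the checkpoint separate the chromosomes. In the testis these genes are known from mitotic spermatogonia and from spermatocytes, which copy DNA once before meiosis and use much of the same division machinery, while Sertoli cells leave the cell cycle during juvenile life.

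Column totals of FPKM ran from 463970 to 511274, and the read counts behind them are unknown. Within groups the correlation of samples across genes on the log2(FPKM + 1) scale was lowest for A10 replicate 3 (Pearson's r 0.929 and 0.941 with the other A10 samples, which had 0.985 between them). Marker genes of germ cells were checked beside the members. The summed level of 12 spermatocyte markers lay at 377 to 431 FPKM in A0 and at 52.5 to 88.1 in B0. That of 12 spermatogonium markers lay at 146 to 208 and 70.5 to 88.3. Uchl1 alone held 60.9 to 100 FPKM of the spermatogonium sum in A0 and 37.2 to 57.2 in B0. This list was uneven, as the B0 mean ran from 0.026% of A0 for Stra8 to 108% for Etv5. The spermatid markers summed to 2781 to 4846 FPKM in A0 and 2660 to 3821 in B0, and 10 Sertoli markers to 3088 to 4264 and 3099 to 4447. Most of the Sertoli sum was the single gene Clu, at 2634 to 3714 FPKM in A0 and 2691 to 3826 in B0. No marker on these lists was at 0 in every sample of a group.

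The question of the busulfan comparisons was how far the division genes differed between testes of treated and untreated mice. In B0 compared to A0, 40 of the 48 members fell and 0 rose (limma, Benjamini-Hochberg adjusted p under 0.05 over all genes tested), where 12.3% of all genes tested were called lower and 1.47% higher. The falls were deepest in chromosome structure and kinetochore genes and shallowest in genes of nucleotide supply. In total the 48 members held 802 to 829 FPKM in the A0 samples and 369 to 446 in B0. The median log2 change was -1.05 over the members and -0.04 over all genes tested. In 42 members all B0 values lay below all A0 values, which was so in 22.7% of all genes tested. Under the study's own limits (adjusted p of at most 0.001 and a log2 change of at least 1) 24 members fell, with 2.49% of all genes tested lower, and 19, 21 and 22 fell in BA10 compared to A10, BA50 compared to A50 and the mean over AOS levels (3%, 3.36% and 3.52%). The study used these limits with DEGseq and its MARS method. Here they were put on the limma values of log2(FPKM + 1), so these counts are not those of the study's test.

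The falls recurred at each AOS level. In BA10 compared to A10, 38 members fell (15.2% of all genes tested were called lower and 3.74% higher), with a median log2 change of -0.87, and in BA50 compared to A50, 38 fell (16.2% lower and 3.7% higher), with a median of -0.97. No member rose in either. For the mean of the 3 busulfan differences, 45 members fell and 0 rose (24.8% lower and 13.3% higher) and the exceptions were Tyms, Tk1 and Ccne1. Of the 45, Rrm2 (-0.35, adjusted p = 0.0345) lost its call with replicate number in the fit (0.0511) and with quantile normalization (0.0831). The Rrm2 call was also lost without A0 replicate 2 (0.0619), among other single samples. Ube2c (-0.25, adjusted p = 0.0248) lost its call with quantile normalization (0.0646) and without B0 replicate 3 (0.0501). A total of 37 members fell in every one of the 3 comparisons, as did 10.0% of all genes tested. Another 7 (Ccnb2, Ccne1, Cdt1, Pcna, Tk1, Tyms and Ube2c) passed in none of the 3. Among the 37, Rrm1 lost its call in BA10 compared to A10 when only these groups were fitted (adjusted p = 0.115), a fit that called 28 members lower. That Rrm1 call was also lost without A10 replicate 2 (0.0555) or BA10 replicate 3 (0.0761), among other single samples. Levels in bulk tissue do not tell fewer cells of a type from less RNA per cell. In B0 compared to A0 the spermatocyte markers moved the same way as the members (10 of 12 tested fell), as did 6 of 11 spermatogonium markers. There 0 of 10 spermatid, 0 of 9 Sertoli and 0 of 7 Leydig markers were called. In BA10 compared to A10, 1 Sertoli and 2 Leydig markers were called higher, and in BA50 compared to A50 1 spermatid and 1 Sertoli marker. In the mean 1 spermatid, 1 Sertoli and 2 Leydig markers were higher, and 0 on these lists were called lower in any comparison. All 10 spermatid markers had higher estimates in BA50 compared to A50 (median 0.89). All 5 fat cell markers rose, from a sum of 3.92 to 6.37 FPKM in A0 to 37.1 to 237 in B0. The part of cell composition in the members' falls was not tested.

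**Figure D1:**
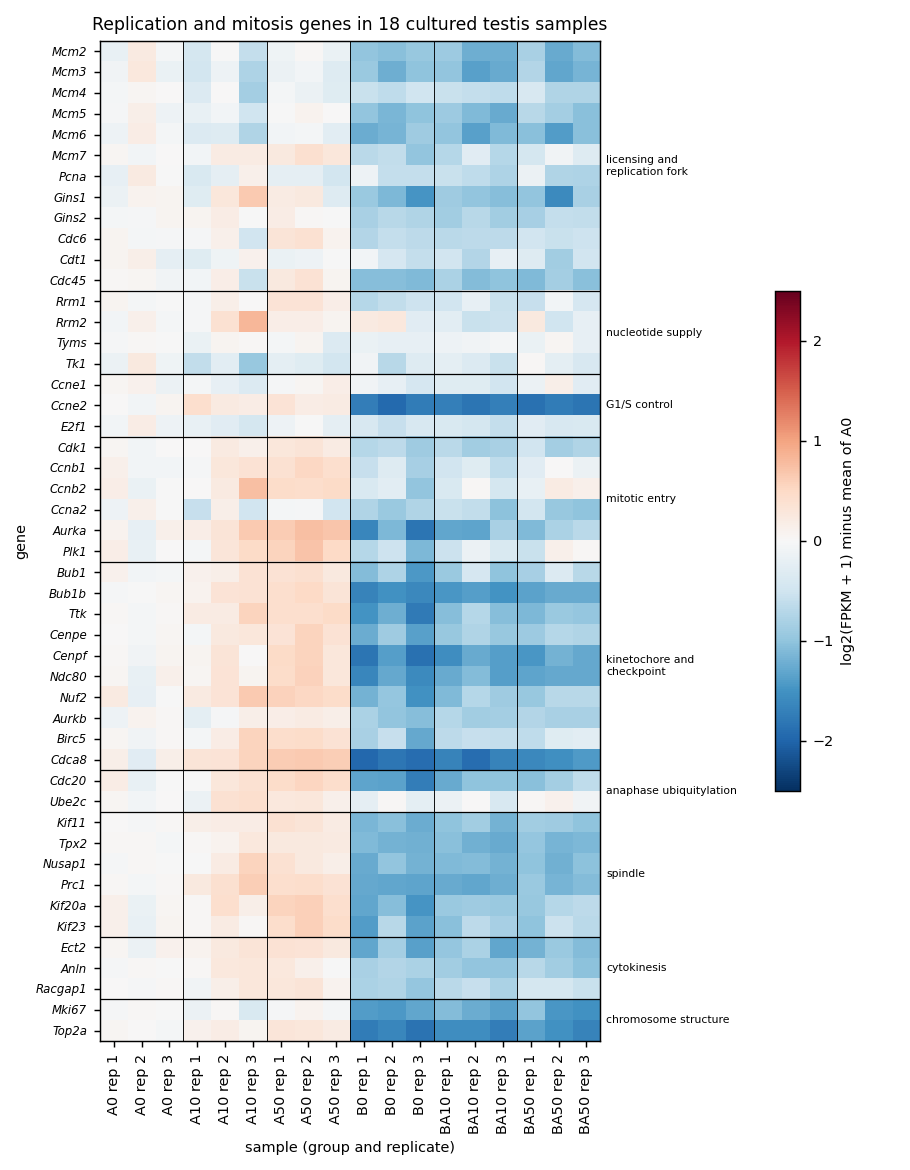
Each cell is a gene's log2(FPKM + 1) in 1 sample minus its mean in A0, with the 48 genes in rows by role and the 18 samples in columns. The 9 busulfan samples are blue in most rows, with Tyms, Tk1, Ccne1 and Rrm2 close to white in several of them.

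The sharpest contrast among relatives was in the E cyclins, which activate CDK2 at the start of S phase. Ccne2 stood at 6.52, 6.15 and 6.87 FPKM in the A0 samples and at 1.26, 0.95 and 1.22 in B0. It was at 7.56 to 9.02 in A10 and 7.51 to 8.56 in A50, against 1.13 to 1.29 in BA10 and 1.06 to 1.22 in BA50. Every busulfan sample thus lay below every sample without busulfan. Ccne2 fell by 1.81 ± 0.09 (SE) on the log2(FPKM + 1) scale in B0 compared to A0 (adjusted p = 1.05e-08), by 2.02 in BA10 compared to A10 and by 2.06 in BA50 compared to A50, and it had the lowest p of all members in each of these comparisons. Its paralogue Ccne1 stood at 6.47, 6.79 and 5.58 FPKM in A0 and at 5.79, 5.27 and 4.46 in B0, with overlapping values. The Ccne1 difference was -0.24 (95% interval -0.51 to 0.03, adjusted p = 0.27) and over the 3 AOS levels -0.19 (-0.34 to -0.03, adjusted p = 0.054). At nearly the same FPKM in A0 (means of 6.51 for Ccne2 and 6.28 for Ccne1), the B0 mean was 17.6% of A0 for Ccne2 and 82.4% for Ccne1. E2f1, a transcription factor of S-phase genes, fell by 0.46 in B0 compared to A0 (adjusted p = 0.0096), from 4.42 to 5.78 FPKM to 2.96 to 3.53, and was not called in BA10 compared to A10 or BA50 compared to A50. The E2f1 call was lost without A0 replicate 2 (-0.37, adjusted p = 0.0514).

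**Figure D2:**
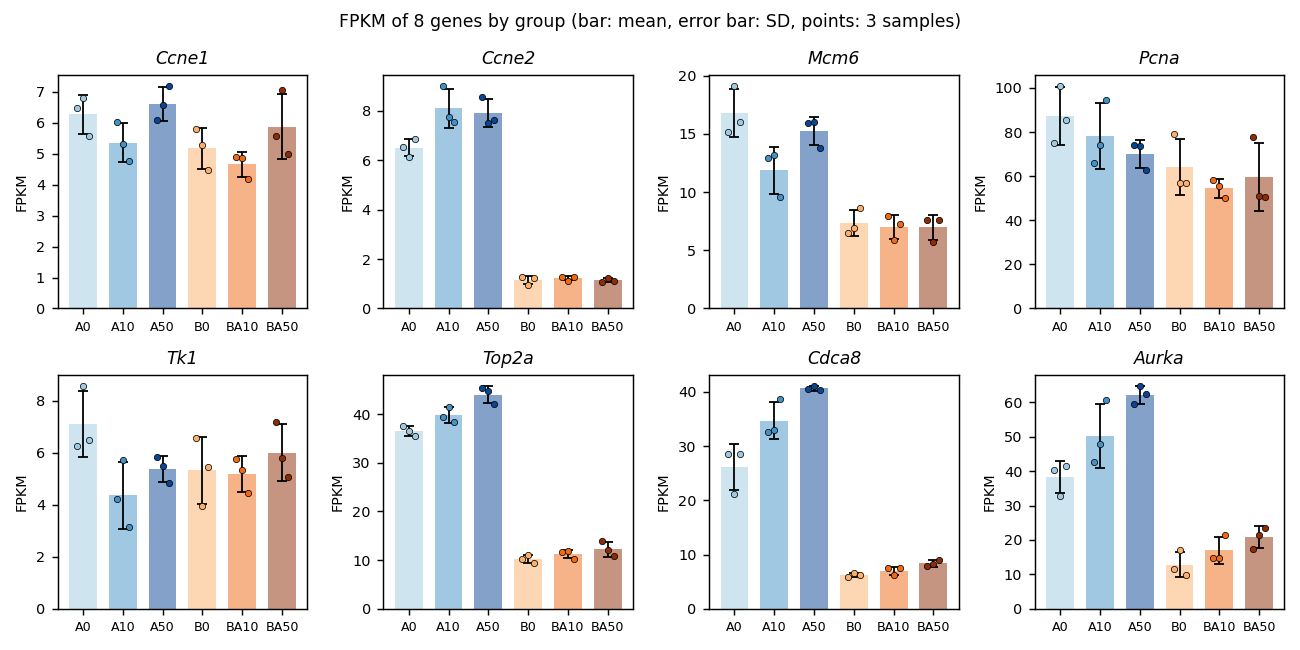
FPKM of 8 members in the 6 groups (bars, mean; error bars, SD; points, the 3 samples). Ccne2, Top2a, Cdca8, Aurka and Mcm6 have every busulfan sample below every sample without busulfan, whereas values of Ccne1, Pcna and Tk1 overlap.

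Among the genes of chromosome structure, Top2a, the topoisomerase that untangles sister DNA, stood at 37.5, 36.5 and 35.4 FPKM in A0 and at 10.1, 11.0 and 9.43 in B0. It fell by 1.74 ± 0.09 (adjusted p = 1.05e-08), and by 1.73 and 1.77 at 10 and 50 μg/mL AOS. Mki67, which coats mitotic chromosomes and is the gene of the Ki-67 proliferation marker, fell by 1.37 (adjusted p = 6.51e-06), from 9.80 to 10.29 FPKM in A0 to 3.08 to 3.5 in B0. For both genes the groups did not overlap at any AOS level.

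All 10 kinetochore and checkpoint genes fell in each of the 3 comparisons, with medians of -1.36, -1.29 and -1.38. Cdca8, a subunit of the chromosomal passenger complex, stood at 28.6, 21.1 and 28.5 FPKM in A0 and at 5.91, 6.68 and 6.17 in B0, a fall of 1.89 ± 0.11 (adjusted p = 3.84e-08). At 10 and 50 μg/mL AOS it fell by 2.15 both times. The other subunits on the list fell less: Aurkb, the kinase of that complex, by 0.95, and Birc5, the survivin gene, by 0.89 (29.8, 26.9 and 29.5 FPKM in A0, 15.9, 18.8 and 11.3 in B0, adjusted p = 0.00179). Bub1b, the checkpoint protein BUBR1, fell by 1.60 ± 0.09 (adjusted p = 1.68e-08), from 12.3, 12.5 and 13.1 FPKM to 3.30, 3.74 and 3.43. Bub1, its relative, fell by 1.10. The checkpoint kinase Ttk fell by 1.49, Cenpf by 1.69, and Ndc80 and Nuf2, partners in the microtubule-binding complex of the kinetochore, by 1.49 and 1.23.

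The 6 spindle genes fell within a narrow band, from 1.14 to 1.30 on the log2(FPKM + 1) scale in B0 compared to A0. That scale understates the falls of low genes. The ratio of FPKM means, A0 over B0, ran from 2.40 for Tpx2 to 2.79 for Kif11, whose B0 mean was 2.04 FPKM. Prc1, which bundles the microtubules of the central spindle, stood at 23.1, 21.8 and 23.2 FPKM in A0 and at 8.71, 8.61 and 8.48 in B0, a fall of 1.30 ± 0.09 (adjusted p = 1.72e-07). Tpx2, the activator of Aurora A on the spindle, fell by 1.16 (adjusted p = 2.85e-07), and the motors Kif11, Kif20a and Kif23 by 1.14, 1.28 and 1.14. The cytokinesis genes Ect2, Racgap1 and Anln fell by 1.17, 0.84 and 0.78. Anln, the scaffold of the contractile ring, stood at 13.1 to 13.6 FPKM in A0 and 7.14 to 7.58 in B0.

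Mitotic entry and anaphase genes were uneven. Aurka, the centrosomal Aurora kinase, fell by 1.53 ± 0.19 (adjusted p = 5.81e-05), from 40.4, 32.9 and 41.5 FPKM to 11.6, 17.01 and 9.94. Cdk1 fell by 0.75, Ccnb1 by 0.58 and Plk1 by 0.78, whereas Ccnb2, the more abundant B cyclin, stood at 50.8, 40.0 and 44.8 FPKM in A0 and 34.6, 37.4 and 22.3 in B0 (-0.54 ± 0.21, adjusted p = 0.11). The Ccnb2 groups did not overlap there, and its mean over the 3 comparisons did pass the test (-0.51, adjusted p = 0.0035). The partners that mark cyclin B and securin for destruction also parted: Cdc20, the activator of the anaphase-promoting complex, fell by 1.46 ± 0.15 (37.2, 28.4 and 32.3 FPKM against 12.5, 12.2 and 9.06, adjusted p = 6.86e-06), while Ube2c, its ubiquitin-conjugating enzyme, had 16.7, 15.3 and 16.2 FPKM in A0 and 13.7, 16.3 and 13.4 in B0 (-0.15 ± 0.14, adjusted p = 0.61). The calls for Ccnb1 and Plk1 were lost without A0 replicate 1 (adjusted p = 0.0558 and 0.0699) and without B0 replicate 3 (0.0592 and 0.0791). For Ube2c the value in B0 replicate 2 lay inside the A0 range.

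**Figure D3:**
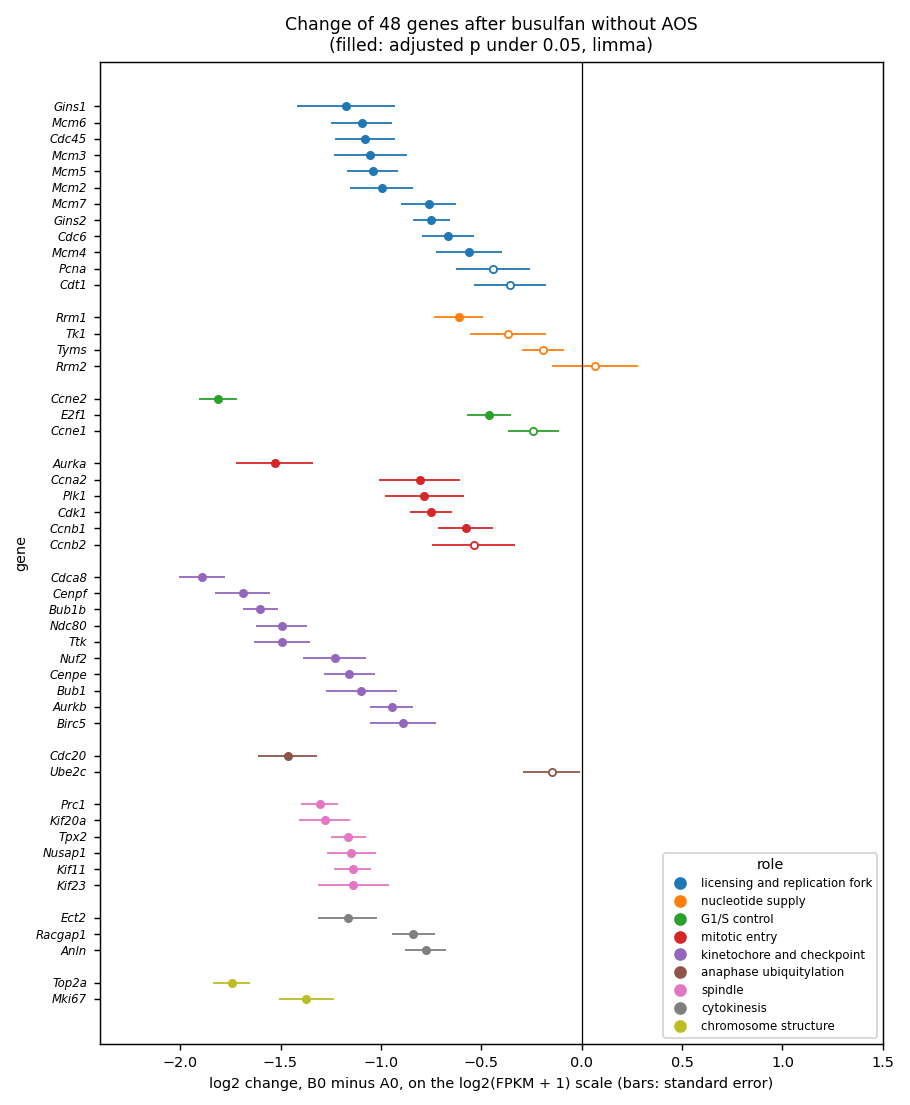
Log2 change of B0 compared to A0 for each gene (points, with SE bars; filled where the adjusted p was under 0.05), coloured by role. Ccne2 and Cdca8 lie furthest to the left on this scale, and 8 genes have open symbols.

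On the replication side 10 of 12 licensing and fork genes fell in B0 compared to A0, with a median log2 change of -0.88. The helicase subunits Mcm2, Mcm3, Mcm5 and Mcm6 fell by 1.00, 1.05, 1.04 and 1.10, and Mcm4 and Mcm7 by 0.56 and 0.76. The Mcm4 call was lost without any one of the 6 A0 and B0 samples (-0.59 to -0.53, adjusted p from 0.0655 to 0.0919). Mcm6 stood at 15.2, 19.1 and 16.0 FPKM in A0 and at 6.51, 6.89 and 8.60 in B0 (adjusted p = 0.000134). Cdc45 fell by 1.08 and Gins1 by 1.17, while Pcna, the sliding clamp, which also serves DNA repair, had 74.9, 101.0 and 85.5 FPKM in A0 and 79.0, 56.9 and 56.8 in B0 (-0.44 ± 0.18, adjusted p = 0.14). B0 replicate 1 was inside the A0 range for Pcna.

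Nucleotide supply genes showed the least difference. Rrm1, the large subunit of ribonucleotide reductase, fell by 0.61 ± 0.12 (32.8, 30.1 and 31.0 FPKM against 18.6, 20.2 and 21.7, adjusted p = 0.003). Rrm2, the small subunit that in dividing cells follows S phase, had 9.36, 10.8 and 9.42 FPKM in A0 and 11.6, 11.95 and 7.91 in B0 (0.07, 95% interval -0.39 to 0.52, adjusted p = 0.901), and its sign turned when B0 replicate 1 or 2 was left out (-0.01 and -0.03). Rrm2 fell in BA10 compared to A10 by 0.84 (adjusted p = 0.0117), where A10 replicate 3 alone reached 18.2 FPKM. That call was lost without this sample (-0.62, adjusted p = 0.0601) and when only the groups compared were fitted (adjusted p = 0.0906), and it missed the limits of the study. Tk1, the salvage thymidine kinase, had 6.25, 8.57 and 6.48 FPKM in A0 and 6.55, 3.97 and 5.45 in B0, and its mean difference over the 3 AOS levels was -0.00 (95% interval -0.24 to 0.23, adjusted p = 0.98). Tyms, thymidylate synthase, was at 7.38 to 7.76 FPKM in A0 and 6.37 to 6.59 in B0 (-0.19, adjusted p = 0.28) and at -0.09 in the mean (-0.22 to 0.04, adjusted p = 0.26).

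Promoter sequence was set beside these falls for members that fell far and for Tk1 and Tyms, which were not called. The genes shown do not stand for all called or uncalled members. RefSeq windows of 250 bases before to 50 after the start (GRCm38.p6) were held for 40 of the 48 members and not for Kif20a, Tpx2, Gins2, Mcm4, Gins1, Ccna2, Ccne2 and Aurkb. In the lines here, the 150 bases before the start are given 5′ to 3′ on the gene's strand, with capitals marking the cell cycle homology region (CHR, TTTGAA or TTCGAA), the CCAAT box (CCAAT) and E2F-like letters (TTTGGCGC, TTTCGCGC, TTTCCCGC or TTTGCCGC), each in either direction. CHR elements are bound by the MuvB complexes that switch G2/M genes, and E2F letters by E2F factors at the G1/S boundary.
Top2a, chr11:99024190-99024339, minus strand: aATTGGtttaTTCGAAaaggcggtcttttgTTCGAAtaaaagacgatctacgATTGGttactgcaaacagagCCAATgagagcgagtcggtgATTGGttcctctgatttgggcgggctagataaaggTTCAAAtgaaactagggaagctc
Cdca8, chr4:124936918-124937067, minus strand: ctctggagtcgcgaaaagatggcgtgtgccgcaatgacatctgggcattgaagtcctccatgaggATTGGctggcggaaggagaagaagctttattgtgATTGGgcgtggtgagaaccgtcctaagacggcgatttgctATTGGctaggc
Cdc20, chr4:118437344-118437493, minus strand: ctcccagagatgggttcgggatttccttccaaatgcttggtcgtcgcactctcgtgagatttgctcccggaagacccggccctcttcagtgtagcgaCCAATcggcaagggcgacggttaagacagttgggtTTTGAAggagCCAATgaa
Mcm6, chr1:128359706-128359855, minus strand: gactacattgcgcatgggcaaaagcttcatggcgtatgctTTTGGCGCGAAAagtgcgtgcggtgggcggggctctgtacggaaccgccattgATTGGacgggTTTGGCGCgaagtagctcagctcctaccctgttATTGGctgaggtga
Tk1, chr11:117826015-117826164, minus strand: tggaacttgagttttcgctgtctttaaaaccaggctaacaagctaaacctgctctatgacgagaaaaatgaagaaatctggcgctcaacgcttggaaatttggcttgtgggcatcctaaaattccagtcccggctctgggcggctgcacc
Tyms, chr5:30073626-30073775, minus strand: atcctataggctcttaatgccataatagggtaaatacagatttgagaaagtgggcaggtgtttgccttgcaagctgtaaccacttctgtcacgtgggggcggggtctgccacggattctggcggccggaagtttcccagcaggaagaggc
The Top2a stretch holds several CHR and CCAAT matches, that of Cdc20 holds CHR letters beginning 18 bases before the start, and Cdca8 has CCAAT matches here and its CHR letters 14 bases after the start. Mcm6 holds E2F letters, of which a TTTGGCGC and a reversed TTTCGCGC overlap, and no CHR letters, and the stretches of Tk1 and Tyms hold none of these letters.

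Over the whole windows, CHR letters were in 80.0% of the 25 mitosis members with a window and 20% of the 15 replication members (licensing, nucleotide and G1/S), against 19.2% of all 32851 windows. A member with more than 1 window counted if any of them held the letters, whereas the share of all windows was taken window by window. E2F letters were in 4.0% of the mitosis and 40.0% of the replication members, against 2.26% of all windows. CCAAT letters were in 72.5% of members and 37.4% of all windows. The median of the mean busulfan log2 change was -1.18 for the 23 members with CHR letters and -0.61 for the members without. Within the mitosis members these medians were -1.26 and -1.14, and within the replication members -0.91 (3 members) and -0.40. For E2F letters they were -0.87 for the 7 members with them and -1.04 without, and within the replication members -0.79 and -0.35. For CCAAT letters they were -1.01 with and -0.66 without, -1.22 and -1.28 within the mitosis members, and -0.90 and -0.24 within the replication members. Birc5, Nuf2, Nusap1, Cenpe and Ccnb1 fell and had no CHR letters in the window, and Ube2c had them with a mean change of -0.25. Birc5, Nuf2 and Nusap1 had no CCAAT or E2F letters either. Among the 7 members called in none of the 3 busulfan comparisons, Ccnb2 and Ube2c held CHR and CCAAT letters. Pcna held CCAAT letters and Cdt1 E2F letters, while Tk1, Tyms and Ccne1 held none. A letter match is a description of the window and was not tested as a site.

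The other genes of the pathway were taken from separate lists. Of 42 other replication genes, 25 fell in B0 compared to A0 and 0 rose, with a median log2 change of -0.52. Over all genes tested 12.3% were called lower there and 1.47% higher. Of 55 other mitosis genes, 37 fell and 0 rose, with a median of -0.67. The lowest p among all of these belonged to Ncapg, a condensin subunit (21.3, 19.3 and 20.3 FPKM in A0, 5.71, 6.35 and 3.99 in B0, a fall of 1.76), Cep55, an abscission protein (a fall of 1.37), and Sgo2a, a protector of centromeric cohesion (a fall of 1.72). Of 19 genes of the G1 cyclins, RB and E2F list 5 fell and 0 rose in B0 compared to A0, with a median log2 change of 0.007. Cdk2, the partner of the E cyclins, named after its values were seen, fell by 0.96 (adjusted p = 0.00023). In the mean over the AOS levels 34 of the 42, 43 of the 55 and 8 of the 19 fell (24.8% of all genes tested were called lower and 13.3% higher). In that mean 0, 2 and 2 genes of these lists rose, as did 1 of 7 CDK inhibitors, and the G1 list had a median of 0.03. The higher genes with the lowest p were Zwint, a kinetochore protein (0.42, adjusted p = 0.0016), the CDK inhibitor Cdkn2b (0.37, adjusted p = 0.0026) and the D cyclin Ccnd3 (0.33, adjusted p = 0.0028).

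Of 7 CDK inhibitor genes, Cdkn2a fell by 1.57 and Cdkn2d by 0.80 in B0 compared to A0. The other five were not called there, with differences of -0.60 for Cdkn2c, -0.44 for Cdkn1c, 0.42 for Cdkn1b, 0.43 for Cdkn2b and 0.95 for Cdkn1a. Cdkn1a, the p53-responsive inhibitor, spread from 38.4 to 99.8 FPKM in A0 and from 69.0 to 198 in B0 and overlapped widely (adjusted p = 0.62).

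The AOS comparisons asked whether culture with AOS moved these genes, with and without earlier busulfan. No member was called in A10 or A50 compared to A0, or in BA10 or BA50 compared to B0 (limma, 0 of 48 at an adjusted p under 0.05 in each, with 0%, 0%, 0.0253% and 0.095% of all genes tested called in either direction). The test of whether the AOS difference itself changed after busulfan called no member either (0% of all genes tested at 10 μg/mL and 0% at 50 μg/mL). For that test 1 member was higher and 3 were lower at an unadjusted p under 0.05 with 10 μg/mL (1.8% and 2.17% of all genes tested), among them Rrm2 with the lowest p (-0.91 ± 0.30, adjusted p = 0.91), and 0 members were so with 50 μg/mL (2.93% and 3.36%), where Ccne2 had the lowest p (-0.25 ± 0.13, adjusted p = 0.87). At an unadjusted p under 0.05, 6 members were higher and 6 lower in A10, 25 higher and 0 lower in A50, 6 higher and 1 lower in BA10, and 20 higher and 0 lower in BA50. The shares of all genes tested that were higher at that level were 4.51%, 9.85%, 1.89% and 12.7%, and the shares lower were 10.7%, 5.8%, 3.17% and 11.6%. Comparisons with a shared control group are not independent of each other.

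The members with higher estimates were mostly those of mitosis. In A50 compared to A0, every one of the 10 kinetochore genes and 6 spindle genes had all A50 values above all A0 values, and so did 31 of the 48 members (17.6% of all genes tested), with a median difference of 0.43 for the kinetochore genes and 0.35 for the spindle genes. Cdca8 had 40.4, 41.1 and 40.3 FPKM in A50 against 28.6, 21.1 and 28.5 in A0, a difference of 0.63 ± 0.11 (adjusted p = 0.15). Aurka had 59.5, 64.6 and 62.4 FPKM against 40.4, 32.9 and 41.5 (0.69 ± 0.19, adjusted p = 0.21), and Kif20a 26.0, 27.1 and 23.6 against 19.1, 15.4 and 18.2 (0.52 ± 0.13, adjusted p = 0.17). With sample quality weights 28 members were called higher in A50, where these weights also called 13.8% of all genes tested higher and 13.6% lower, and over the alternatives the adjusted p of Cdca8 ran from 0.0043 to 0.66. The unadjusted count of 25 became 16 without A0 replicate 2, and the share of all genes in that fit is not given.

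After busulfan these genes lay lower at every AOS level, and the kinetochore members had median AOS differences of 0.28 in BA10 and 0.38 in BA50 compared to B0. Aurka had 11.6, 17.01 and 9.94 FPKM in B0, 14.8, 14.7 and 21.3 in BA10 and 17.3, 21.5 and 23.5 in BA50. The BA50 difference from B0 was 0.67 ± 0.19 for Aurka (adjusted p = 0.11), 0.62 ± 0.15 for Cdc20 (15.2, 17.5 and 20.6 FPKM against 12.5, 12.2 and 9.06, adjusted p = 0.101) and 0.51 ± 0.13 for Kif20a (adjusted p = 0.101). Without BA50 replicate 1, 6 members were called higher in BA50 compared to B0, with 3.88% of all genes tested called higher and 3.18% lower in that fit, and without B0 replicate 3 the unadjusted count fell from 20 to 12. In BA10 compared to B0 the lowest p was that of Ttk (5.75, 7.55 and 5.76 FPKM against 4.04, 5.08 and 3.12, 0.54 ± 0.14, adjusted p = 0.65). The unadjusted count there ranged from 1 without B0 replicate 3 to 13 without B0 replicate 2. The share of all genes at that level is not given for these fits or for BA50 without B0 replicate 3. Marker sums also differed between these groups. The 10 spermatid markers summed to 2660 to 3821 FPKM in B0 and 5534 to 11759 in BA50, the 5 fat cell markers to 37.1 to 237 and 4.31 to 11.2, and the 5 endothelium markers to 67.2 to 77.9 and 27.0 to 62.5. Of these, 3 fat cell markers fell (adjusted p under 0.05), and the part of these cells in the members' values was not tested. Summed levels of the members stayed far apart from the untreated testes: 499 to 518 FPKM in BA50 and 802 to 829 in A0.

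**Figure D4:**
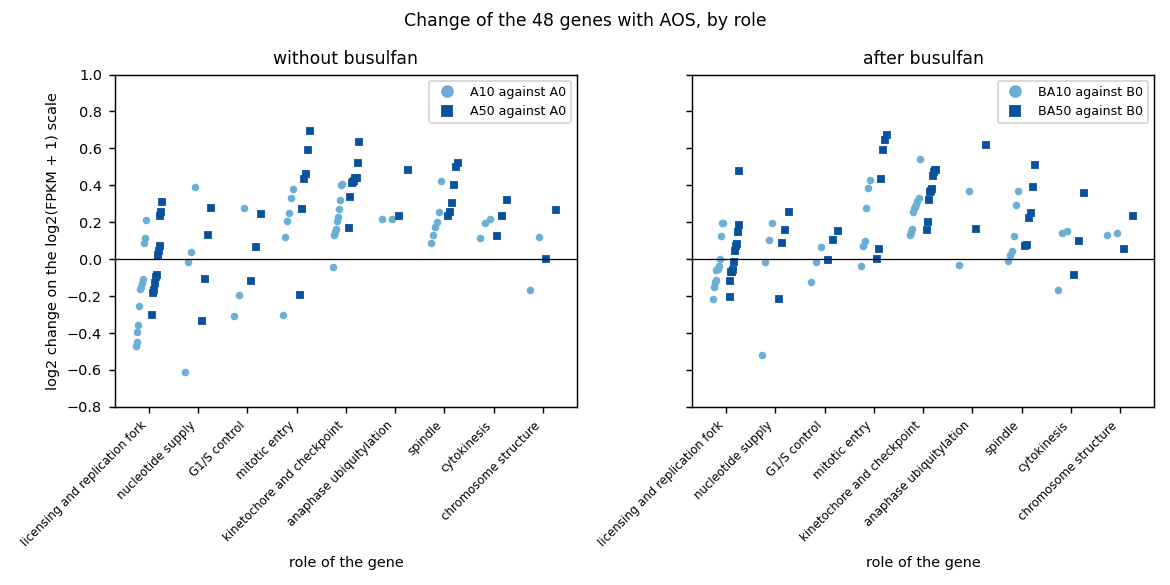
Log2 change of each of the 48 genes with 10 μg/mL (circles) and 50 μg/mL AOS (squares), by role, without busulfan (left) and after busulfan (right). Kinetochore genes lie above 0 for both doses in each panel but for 1 circle on the left, while licensing genes lie on both sides.

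The helicase genes Mcm2 to Mcm6 had lower means in A10 than in A0. Mcm6 had 12.9, 13.2 and 9.56 FPKM in A10 against 15.2, 19.1 and 16.0 in A0 (-0.47 ± 0.15, adjusted p = 0.32), and Mcm3 had 8.67, 11.2 and 6.82 against 11.5, 14.8 and 10.9 (-0.45, adjusted p = 0.32). The sum of Mcm2 to Mcm6 was 44.4 ± 9.7 FPKM in A10 and 59.3 ± 7.06 in A0 (SD, n = 3). Tk1 also had a lower estimate in A10 (4.22, 5.73 and 3.14 FPKM, -0.61 ± 0.19, adjusted p = 0.32), whereas Prc1 had the lowest p of the members in that comparison with a higher one (27.1, 30.3 and 35.6 FPKM against 23.1, 21.8 and 23.2, 0.42 ± 0.09, adjusted p = 0.32). A10 replicate 3 was at the end of the range for each of these genes. Without it the number of members lower at an unadjusted p under 0.05 went from 6 to 2, as it did without A0 replicate 2. Without A10 replicate 1 the number higher went from 6 to 13. The shares of all genes in these fits are not given. Mcm7, a further subunit of the helicase, had higher values with 50 μg/mL AOS, at 46.7, 52.0 and 47.9 FPKM in A50 against 40.7, 37.4 and 39.6 in A0, and at 28.6, 36.9 and 31.1 in BA50 against 24.0, 25.3 and 19.2 in B0, and neither pair of groups overlapped. It was not called in either comparison, and its exact two-sided permutation p was 0.1 in each, the smallest possible. In A50 compared to A0, 17.6% of all genes tested lay apart in that direction, and the share for BA50 is not given. In A10 the Sertoli marker sum was 1049 to 2782 FPKM, below the 3088 to 4264 of A0. Clu alone held 882 to 2312 FPKM of it in A10, with the lowest value in A10 replicate 3. All 9 tested Sertoli markers had lower estimates in A10 and 0 were called. So did all 7 macrophage and 10 of 11 spermatogonium markers, with 0 called. By contrast 9 of 12 spermatocyte and 9 of 10 spermatid markers had higher estimates. The median over all genes tested was -0.06. The part of Sertoli cells in these values was not tested.

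The mean log2(FPKM + 1) of the 29 mitosis members minus that of the 19 replication members was 0.60, 0.33 and 0.58 in the A0 samples, 0.71, 0.74 and 1.02 in A10 and 0.84, 0.85 and 0.89 in A50. It was -0.01, 0.29 and -0.04 in B0, 0.21, 0.41 and 0.29 in BA10 and 0.20, 0.43 and 0.38 in BA50. Every sample with AOS alone lay above every A0 sample, and the groups after busulfan overlapped. The spermatocyte marker sum was 458 to 498 FPKM in A10 and 525 to 551 in A50, above the 377 to 431 of A0, and its part in this difference was not tested.

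**Figure D5:**
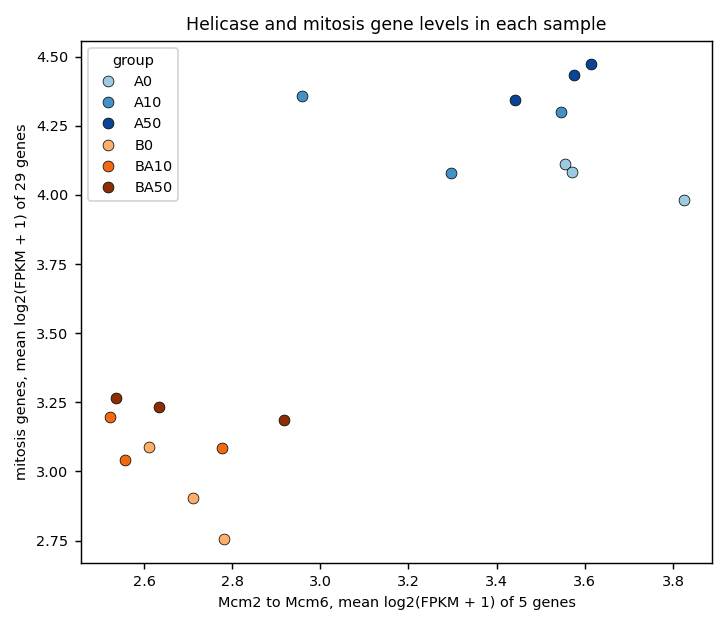
Mean log2(FPKM + 1) of Mcm2 to Mcm6 (horizontal) and of the 29 mitosis genes (vertical) in each of the 18 samples, coloured by group. The 9 busulfan samples lie at the lower left, and A10 replicate 3 lies at a low helicase level with a high mitosis level.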

How the data were processed

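RNA-seq was available for 18 samples of cultured testes, 3 for each of 6 groups taken from the labels. The authors deposited 1 table of FPKM per gene and sample. The submitters' processing notes name HISAT, Bowtie2, RSEM and GRCm38.p5, whereas the supplementary methods describe poly(A) libraries, SOAPaligner and RPKM, so the route to the deposited FPKM values is not settled. Read depth is unknown, and no interval from counting was computed. FPKM was scaled by the authors to gene length and library, so a level depends on what else the sample holds.

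Symbols were assigned from the RefSeq table of GRCm38.p6 for 20656 of 20811 gene numbers. Genes with at least 1 FPKM in 3 samples entered a limma 3.58.1 fit (R 4.3.3) on log2(FPKM + 1), 1 coefficient per group over the 18 samples, eBayes with trend (12 residual and 2.56 prior degrees of freedom), and Benjamini-Hochberg adjustment over 15790 genes. A log2 change on this scale understates that of low genes. Python 3.11.15 with pandas 2.3.3 served for tables. The fit was tested on simulated data. Exact two-sided permutation tests over 20 arrangements could not go below p = 0.1 and reached it for 42 members in B0 compared to A0. For the mean over AOS levels 37 members reached the smallest possible 0.00025. The permutation tests were run on the members only, so the share of all genes reaching these smallest values is unknown. In that mean limma called 24.8% of all genes tested lower and 13.3% higher. The permutation counts therefore do not set the members apart from other genes.

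Genes named in full were the most abundant of each role, the lowest p of each comparison and those with the lowest p under the study's limits in the busulfan comparisons; relatives and other role members were added after their values were seen. Pathway genes outside the members were the 3 with the lowest p in each direction and the CDK inhibitors. The members and lists were chosen with earlier results of these data known. Cultures were repeated, but nothing says whether the samples are separate animals' pools, so p-values measure the spread between these samples. Replicate numbers were checked as pairs: deviations of same-numbered samples correlated at -0.66 to 0.67, and every pair was above 0.1 for 2 of 15 group pairs, among them B0 with BA50 (0.56, 0.42 and 0.14). Alternatives were the replicate block, a fit restricted to the compared groups, no filter or a mean of at least 5 FPKM, a pseudocount of 0.1, quantile normalization, rescaling to TPM, eBayes without trend or robust, sample quality weights, the study's limits and each replicate left out. The block within the busulfan samples was added after seeing the data.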

Additional observations from a re-analysis of the deposited data

How the results depend on the processing

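The number of members that fell stayed within 1.5 times of the reported one in every busulfan comparison under all alternatives but the study's limits, which left 24 in B0, 19 in BA10, 21 in BA50 and 22 in the mean. Leaving out 1 replicate gave 37 to 40, 36 to 41, 36 to 39 and 43 to 46. Fitting only the groups compared gave 38, 28 and 37 (not run apart for the mean, which uses all groups). The shares of all genes called lower in these fits are not given, so the counts describe the members alone. Sample quality weights, estimated gene by gene, called 1 member higher in A10, 28 in A50 and 11 in BA50, against 0.0443%, 13.8% and 5.89% of all genes tested; they gave A10 replicate 3 the least weight (0.126) and A0 replicate 3 the most (3.26). The AOS counts were otherwise 0, apart from BA50 compared to B0, where they ran from 0 to 6 with a replicate left out (6 without BA50 replicate 1, where 3.88% of all genes were called higher). With the replicate block, 40, 38, 38 and 45 members fell, where 11.4%, 14.4%, 15.5% and 24.3% of all genes tested were called lower. With the block 0 members were called in the AOS comparisons, also within the busulfan samples alone, so it changed no count of members called. In the mean the block did change which members were called, as Rrm2 lost its call there (adjusted p = 0.0511). The mean for Tk1 changed sign under quantile normalization (0.079) and without any one of 7 samples (A0 replicate 2, A10 replicate 2, A50 replicate 1, B0 replicate 2, BA10 replicate 3, BA50 replicate 2 or 3), within -0.062 to 0.055 over all samples left out, and Rrm2 in B0 compared to A0 changed sign without B0 replicate 1 (-0.012) or 2 (-0.031), within -0.031 to 0.24. The cause of these changes was not tested. Unknown depth leaves the error of low members, such as Ccne2 after busulfan, to the spread of 3 samples.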
